A study of Mus musculus with 12 samples.

Results

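The genes described here encode the nuclear subunits of the last 3 respiratory complexes and the carrier between them: complex III, cytochrome c, complex IV and complex V. They were taken by symbol, as every gene that starts with Uqcr or Atp5 or with Cox followed by 4, 5, 6, 7 or 8, together with Cyc1 and Cycs. This gave 46 of the 23042 genes in each expression table. Of these, 9 encode subunits of complex III, 1 encodes cytochrome c, 17 encode subunits of complex IV and 15 encode subunits of complex V. The remaining 4 match by name and are no core subunit (Cox7a2l, Atp5s, Atp5sl and Cox4nb), so 42 genes are core members. Each of the 46 has 1 row per table, and none is in an entry that joins several symbols.

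RNA was sequenced from heart ventricles and from epididymal fat (EWAT) of wild type (WT) mice and of MED13 cardiac transgenic (MED13cTg) mice. MED13 is a subunit of the Mediator complex, which links transcription factors to RNA polymerase II. The transgene acts in the heart, so EWAT is a tissue outside its site of action. Whether a difference in EWAT is a response to the heart was not tested. All mice were male C57BL/6 littermates 6 weeks old, kept on normal chow and sampled while fed in the late afternoon, with 3 libraries for each genotype and tissue and 12 in all. The promoter of the transgene, and whether it is 1 line, are not given in the sources used here. Values are FPKM, the fragments of a gene scaled to transcript length and to the mapped fragments of the library, and the depth of a library is unknown from them. The genotypes were compared in each tissue with limma on log2(FPKM + 1), a scale that understates the change of low genes, with a threshold of 0.05 on the adjusted p.

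Complex III takes electrons from ubiquinol and passes them to cytochrome c, a small soluble protein between the mitochondrial membranes. Complex IV, cytochrome c oxidase, hands them on to oxygen, and both complexes pump protons whose return through complex V, the ATP synthase, drives the making of ATP. Heart muscle is dense with mitochondria and relies on this chain throughout life, whereas white fat cells hold few mitochondria. Several complex IV subunits come as pairs, with one gene used in most tissues and another used in heart and skeletal muscle or in testis.

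The labels and the libraries were checked first. Med13 was at 10.6 to 13.1 FPKM in WT ventricles and at 181 to 263 FPKM in MED13cTg ventricles, a log2 fold change of 4.08 ± 0.17 (SE, adjusted p = 0.000281), and in EWAT it was at 9.43 to 10.9 FPKM in WT and 7.84 to 11.0 FPKM in MED13cTg. Defining genes of ventricular myocytes summed to 66519 to 94768 FPKM in the ventricles. Sums of 6 atrial myocyte genes there were 747, 496 and 452 FPKM for WT and 998, 2450 and 1165 FPKM for MED13cTg. Most of each sum was Nppa, at 564, 408 and 368 FPKM for WT and 892, 1773 and 1088 FPKM for MED13cTg. Only MED13cTg replicate 2 stood apart in Myl7, at 322 FPKM against 20.9 to 63.5 FPKM in the other 5 libraries. The same held for Myl4, at 245 against 28.5 to 96.8 FPKM. The part of atrial content in the results was not tested. The EWAT libraries differed in tissue content: 13 mature adipocyte genes (Adipoq and Plin1 among them) gave sums of 14186, 33840 and 23423 FPKM in the WT mice and 1582, 85967 and 18520 FPKM in the MED13cTg mice. For 18 epididymis genes the sums were 94096, 90579 and 117811 FPKM for WT and 14065, 291 and 89783 FPKM for MED13cTg. For 7 testis germ cell genes, such as Prm1 and Ldhc, they were 249, 241 and 306 FPKM for WT and 16636, 7.34 and 371 FPKM for MED13cTg. No gene of these 3 EWAT lists was at 0 in any library. Rank correlations across genes were 0.944 to 0.969 between ventricle libraries and 0.958 to 0.972 among 4 EWAT libraries, but 0.350 to 0.494 between EWAT MED13cTg replicate 1 and the others. MED13cTg replicate 2 of EWAT also stood apart, at 0.350 to 0.852. In bulk tissue, fewer cells of a type and less RNA per cell cannot be told apart.

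In WT ventricles the 46 genes made up 12.5 to 14.0% of all summed FPKM, and in WT EWAT 2.18 to 2.50%. The tables of the tissues were made separately, so levels in ventricles and EWAT are set side by side with no test. The ventricle to EWAT ratio of WT means had a median of 5.79 over the 42 core genes, and 37 of them had a higher mean in ventricles. The median ratio was 7.17 for complex III, 3.83 for complex IV and 6.14 for complex V, and Cycs stood at 8.59. All 9 genes of complex III and all 15 of complex V were higher in ventricles, so the 5 core genes that were higher in EWAT all belong to complex IV. These were the widely used isoforms Cox6a1 and Cox8a and the testis isoforms Cox6b2, Cox7b2 and Cox8c. The WT EWAT libraries also held epididymis genes, at sums of 90579 to 117811 FPKM, and germ cell genes, at 241 to 306 FPKM. Levels and shares in EWAT are therefore those of the sampled tissue and not of fat cells alone, and the part of this content was not tested. The plot of WT levels shows both tissues for every gene.

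**Figure D1:**
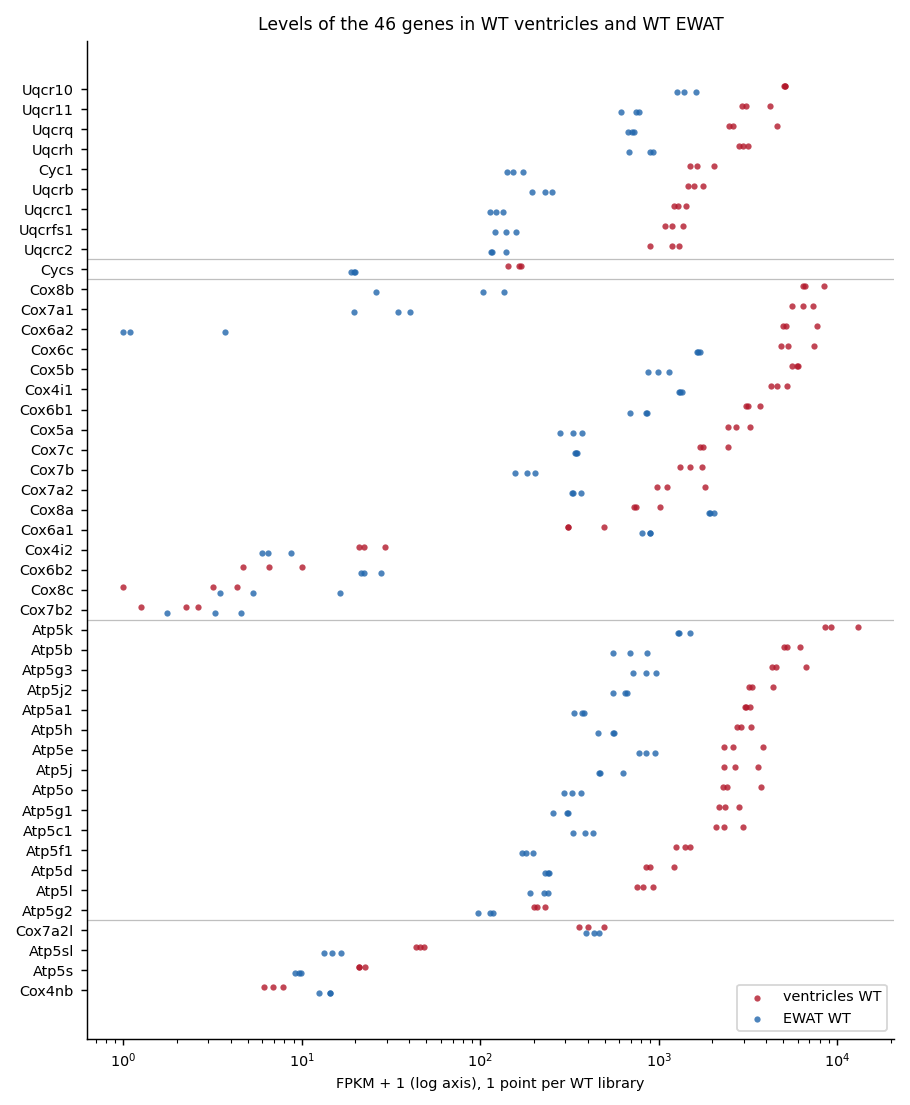
FPKM + 1 on a log axis for the 46 genes in the 3 WT libraries of ventricles (red) and of EWAT (blue), with 1 point per library and lines between complex III, cytochrome c, complex IV, complex V and the 4 genes that are no core subunit. Nearly all genes of complexes III and V lie farther right in ventricles, while Cox6a1 and Cox8a lie farther right in EWAT and Cox6a2, Cox7a1 and Cox8b lie far to the left there.

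The order of levels differed between the tissues. In WT ventricles the highest gene was Atp5k, subunit e of the ATP synthase, at 10300 ± 2397 FPKM (SD, n = 3), above Cox8b at 7177 ± 1135, Cox7a1 at 6433 ± 854 and Cox6a2 at 5946 ± 1517 FPKM. The libraries of Atp5k (8595 to 13041 FPKM) did not overlap those of Cox8b (6465 to 8487 FPKM), whereas Cox8b overlapped Cox7a1 (5579 to 7288 FPKM), which overlapped Cox6a2 (4991 to 7695 FPKM). In WT EWAT the order began with Cox8a at 1970 ± 63.1 FPKM, Cox6c at 1672 ± 36.7 FPKM, Uqcr10 at 1425 ± 184 FPKM and Atp5k at 1361 ± 124 FPKM. Of these neighbours only Uqcr10 and Atp5k overlapped between libraries. Within complex III the small subunit Uqcr10 was highest in both tissues, at 5081 ± 41.3 FPKM in ventricles. In ventricles 3 of the 4 highest genes were thus muscle isoforms of complex IV. This order rests on FPKM, which is scaled to transcript length. The transcripts of Atp5k, Cox8b, Cox7a1 and Cox6a2 are 371, 360, 393 and 680 bases long, and that of Uqcr10 is 434 bases long. RefSeq names 4 pseudogenes of Atp5k, which may share reads with it. The part of transcript length or of shared reads in the order was not tested.

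The muscle isoforms carried the sharpest contrast between the tissues. Cox6a2, the heart and muscle form of subunit 6a, was at 7695, 4991 and 5152 FPKM in WT ventricles and at 0.0965, 2.71 and 0 FPKM in WT EWAT, and the widely used Cox6a1 was at 492, 309 and 308 FPKM in ventricles and 810, 888 and 898 FPKM in EWAT. Cox7a1, the muscle form of subunit 7a, was at 7288, 5579 and 6432 FPKM in WT ventricles and 18.7, 39.2 and 33.8 FPKM in WT EWAT, while Cox7a2 was at 1820, 977 and 1110 FPKM and at 324, 365 and 331 FPKM. Cox8b, the muscle form of subunit 8, was at 8487, 6465 and 6580 FPKM in WT ventricles and 25.0, 134 and 103 FPKM in WT EWAT, beside Cox8a at 1014, 727 and 742 FPKM and at 1950, 2041 and 1920 FPKM. As a share of each pair's summed FPKM, Cox6a2 thus took 94.0 to 94.4% in WT ventricles against 0 to 0.304% in WT EWAT. Cox7a1 took 80.0 to 85.3% against 5.46 to 9.70%, and Cox8b took 89.3 to 89.9% against 1.26 to 6.17%. Every ventricle library was on the muscle side of these pairs and every EWAT library on the other side.

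**Figure D2:**
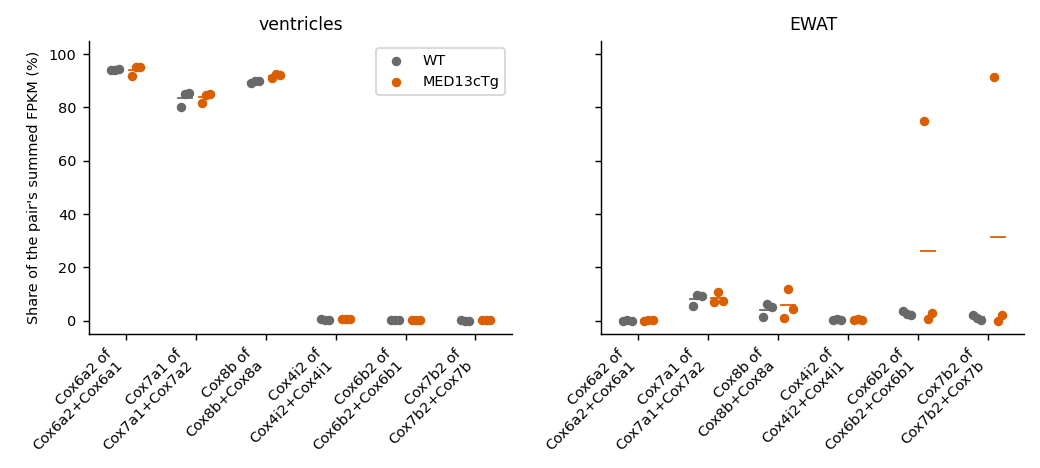
Share of a pair's summed FPKM (%) taken by the first gene of 6 complex IV isoform pairs in ventricles and EWAT, with 1 point per library (grey WT, orange MED13cTg) and a line at each group's mean. Muscle isoforms took 80.0 to 95.3% in the ventricle libraries and 0 to 11.9% in the EWAT libraries, and the 2 high orange points in EWAT, at 74.7% for Cox6b2 and 91.5% for Cox7b2, are both MED13cTg replicate 1.

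The genes of the muscle isoforms all lie on chromosome 7. In the mm9 build that the authors used, the tables place Cox7a1 at chr7:30969189-30971049, Cox6a2 at chr7:135317459-135351816 and Cox8b at chr7:148084840-148093866. These intervals span whole genes, and the entries of Cox6a2 and Cox8b overlap those of neighbouring genes, so reads in the shared stretch may not be told apart. The 120 bases before the start of the gene are shown for the pairs whose isoforms differ most between the tissues and for which both sequences were at hand, from RefSeq on GRCm38.p6, read 5′ to 3′ on the strand of the gene. Capitals mark the E-box CAGCTG, and no other searched motif lay wholly within these stretches. In the longer windows described below, Cox8a held the GABP motif.
Cox7a1: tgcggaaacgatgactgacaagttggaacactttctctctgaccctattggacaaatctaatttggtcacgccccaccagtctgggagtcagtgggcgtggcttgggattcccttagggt
Cox7a2: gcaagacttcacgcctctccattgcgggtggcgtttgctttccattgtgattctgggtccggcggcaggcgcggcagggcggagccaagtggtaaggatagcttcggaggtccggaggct
Cox8b: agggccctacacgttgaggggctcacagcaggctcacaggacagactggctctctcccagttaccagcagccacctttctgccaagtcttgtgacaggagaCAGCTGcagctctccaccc
Cox8a: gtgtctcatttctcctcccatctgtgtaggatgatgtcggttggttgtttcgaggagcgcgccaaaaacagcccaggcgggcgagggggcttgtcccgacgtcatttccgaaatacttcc
The stretches are chr7:30184051-30184170 on the plus strand for Cox7a1 and, on the minus strand, chr9:79759854-79759973 for Cox7a2, chr7:140900447-140900566 for Cox8b and chr19:7217617-7217736 for Cox8a. Motifs were searched on both strands in windows from 250 bases before to 50 bases after the start. These were at hand for 32 of the 42 core genes, not including Cox6a2, and for 27025 genes in all. The letters GCGCANGCG of the NRF1 motif, a factor known for nuclear genes of mitochondrial proteins, were in 34.4% of the core genes with a window and in 7.03% of all genes. The letters CCGGAAG of the GABP motif were in 31.2% against 9.93%, those of YY1 (AAGATGGCG) in 6.25% against 1.64% and those of ERR (TCAAGGTCA) in 3.12% against 0.466%. The E-box letters CAGCTG were in 6.25% against 18.3%, and the MEF2 motif was in 0 of the 32 core genes against 3.70% of all genes. Matches of different motifs may share bases and were counted separately, and CAGCTG reads the same on both strands. A match is a stretch of letters and not a measured binding site.

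The comparison of genotypes in ventricles asked whether more MED13 in the heart went with a different level of these complexes. No member passed the test (0 of 46), with adjusted p from 0.966 to 0.996, where 7 of 12589 genes passed, or 0.0556%. At an unadjusted p under 0.05, 1 member was higher, against 1.69% of all genes, and 0 were lower, against 3.03%. The MED13cTg libraries all lay above the WT libraries in 1 member, against 3.46% of all genes, and all below them in 2 members, against 5.85%. These shares are near the background. The estimates of 38 of the 46 members were below 0 and those of 8 above, with a median log2 fold change of -0.12 beside -0.01 over all genes, but without WT replicate 1 only 21 of 45 were below 0 and the median was 0.01, without MED13cTg replicate 3 it was 25 of 46 with a median of -0.01, and with array weights, which give each library its own weight, 21 of 46 were below 0 and the median was 0.03.

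The libraries of both genotypes were spread around the WT means. Relative to the WT mean of each gene, the members had a median of 0.23, -0.17 and -0.05 on the log2 scale in WT replicates 1, 2 and 3 and of -0.17, 0.14 and -0.32 in MED13cTg replicates 1, 2 and 3. WT replicate 1 and MED13cTg replicate 2 were high and MED13cTg replicate 3 was low in complexes IV and V alike, and the genotypes overlapped. Of the 6 libraries, WT replicate 1 was the highest for 26 members and MED13cTg replicate 2 for 16, and MED13cTg replicate 3 was the lowest for 27. MED13cTg replicate 2 is the library with the highest atrial sum, and without it the medians of complexes III, IV and V were -0.29, -0.21 and -0.24. Transcripts shorter than 1000 bases, as 30 of the 46 members are, also differed between libraries: relative to the mean of all 6 libraries, not of WT, their median over all genes was 0.23 in WT replicate 1, 0.24 in MED13cTg replicate 2 and -0.19 in MED13cTg replicate 3. On that same scale the 30 short members had medians of 0.31, 0.29 and -0.26, and the part of length in their levels was not tested. By rank correlation the ventricle libraries formed 2 clusters, WT replicate 1 with MED13cTg replicates 1 and 2, and WT replicates 2 and 3 with MED13cTg replicate 3. Within them the members' median difference, MED13cTg minus WT, was -0.25 and -0.21. With the cluster as a covariate 42 of 46 estimates were below 0 and the median was -0.24, still with 0 members past the test. The clusters were drawn from these same libraries, and each holds only 1 library of one genotype. MED13cTg replicate 1 was placed by a narrow margin, at 0.963 with WT replicate 1 and 0.957 with MED13cTg replicate 3. These values are thus no separate evidence of a lower level.

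**Figure D3:**
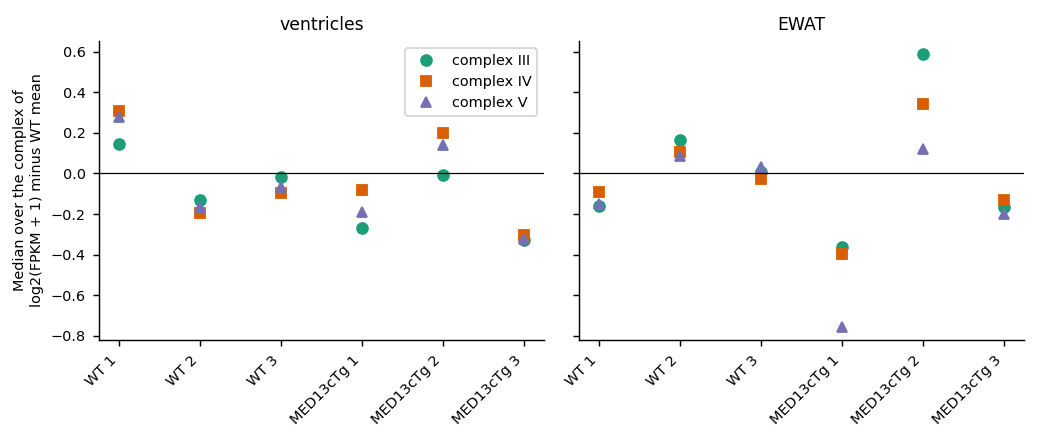
Median over the genes of complex III, IV and V of log2(FPKM + 1) minus the gene's WT mean, for each library of ventricles and of EWAT. In ventricles WT replicate 1 was highest and MED13cTg replicate 3 lowest for each complex, with the other libraries between them, and in EWAT MED13cTg replicate 1 was lowest and MED13cTg replicate 2 highest for each complex.

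For complex III in ventricles, 8 of 9 estimates were below 0, with a median log2 fold change of -0.21. That median was -0.09 without WT replicate 1, -0.11 without MED13cTg replicate 3 and -0.12 with array weights. Uqcrc1, a core protein of the complex, had WT values of 1216, 1280 and 1426 FPKM and MED13cTg values of 956, 1158 and 1078 FPKM. Its groups did not overlap, and its log2 fold change was -0.30 ± 0.15 (SE, adjusted p = 0.966). Its partner Uqcrc2 had WT values of 899, 1185 and 1307 FPKM and MED13cTg values of 812, 860 and 937 FPKM, which overlap, with the lowest estimate of the complex at -0.36 ± 0.18. Cyc1, the cytochrome c1 that carries the heme facing cytochrome c, had WT values of 2046, 1507 and 1647 FPKM and MED13cTg values of 1531, 1667 and 1283 FPKM, and its groups overlapped. The Rieske iron-sulfur protein Uqcrfs1 had an estimate of -0.23 ± 0.17 and the small subunit Uqcrb one of -0.25 ± 0.18. The other small subunits Uqcr10, Uqcr11, Uqcrh and Uqcrq lay between -0.10 and 0.06. Estimates in complex III were thus lower for the larger catalytic and core proteins than for most small subunits, and none passed the test.

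Cytochrome c, encoded by Cycs, gave an estimate close to 0 in ventricles. It had WT values of 169, 143 and 163 FPKM and MED13cTg values of 170, 173 and 125 FPKM, with a log2 fold change of -0.03 ± 0.17, and the groups overlapped. RefSeq names 3 pseudogenes of Cycs, which may share reads with it. In WT EWAT it was at 18.7, 18.8 and 17.9 FPKM, and in MED13cTg EWAT at 12.7, 20.8 and 15.5 FPKM, again overlapping.

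For complex IV in ventricles, 14 of 17 estimates were below 0, with a median of -0.12, but this direction turned with single libraries: 5 of 16 were below 0 without WT replicate 1 (median 0.07), 8 of 17 without MED13cTg replicate 3 (0.05) and 6 of 17 with array weights (0.08). Without WT replicate 2, WT replicate 3 or MED13cTg replicate 2 the median was lower, at -0.22, -0.18 and -0.21, and under quantile normalization it was -0.05. The highest gene, Cox8b, was at 6758, 9661 and 6718 FPKM in MED13cTg beside the WT values above, a log2 fold change of 0.09 ± 0.23, and Cox8a was at 674, 781 and 562 FPKM, a log2 fold change of -0.30 ± 0.20. Each gene overlapped between genotypes, but their ratio did not: Cox8b took 89.3 to 89.9% of the pair in WT and 90.9 to 92.5% in MED13cTg. The log2 ratio was 3.12 ± 0.05 in WT and 3.51 ± 0.16 in MED13cTg (SD, n = 3), a difference of 0.39 with an exact two-sided permutation p of 0.10, the smallest that 3 against 3 libraries allow, and 0.267 after Benjamini-Hochberg adjustment over the 8 pairs of the tissue. Without MED13cTg replicate 2 the difference was 0.33. Apart from the 1 FPKM added to each gene, a ratio within a library does not depend on that library's scaling.

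A pair of further ratios among the 8 did not overlap in ventricles. Cox4i2, an isoform of subunit 4 best known from lung, had WT values of 28.3, 19.8 and 21.4 FPKM and MED13cTg values of 25.1, 33.0 and 22.7 FPKM, and Cox4i1, the main isoform, at 5233, 4271 and 4609 FPKM and at 3899, 4724 and 3866 FPKM. The log2 ratio of Cox4i2 to Cox4i1 was higher in every MED13cTg library, by 0.39, with the same exact permutation p of 0.10 (adjusted 0.267). Cox4i2 remained under 0.7% of the pair in all 6 libraries. The ratio of Cox7b2 to Cox7b was higher by 1.00 (exact permutation p = 0.10, adjusted 0.267), from a Cox7b2 level of 1.62, 0.251 and 1.24 FPKM for WT and 2.43, 3.21 and 2.51 FPKM for MED13cTg. Cox7b2, a testis isoform, was the member with an unadjusted limma p under 0.05, with a log2 fold change of 0.93 ± 0.28 (adjusted p = 0.966), at levels near the filter of 1 FPKM. The value was 0.61 without WT replicate 2, the library at 0.251 FPKM, and 1.58 with a pseudocount of 0.1, under which the ratio to Cox7b differed by 1.65.

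For the other muscle pairs the genotypes overlapped in ventricles. Cox6a2 was at 4129, 7194 and 5093 FPKM in MED13cTg and Cox6a1 at 374, 374 and 252 FPKM, so that Cox6a2 took 91.7 to 95.3% of the pair. Cox7a1 was at 6167, 7806 and 5201 FPKM and Cox7a2 at 1373, 1422 and 928 FPKM, with Cox7a1 at 81.8 to 84.9%. Both log2 ratios differed between genotypes by under 0.03 in their means, with an exact permutation p of 1, against an SD among MED13cTg libraries of 0.48 for the subunit 6a pair and 0.18 for the subunit 7a pair. For subunit 6b, the main Cox6b1 had WT values of 3706, 3072 and 3187 FPKM and MED13cTg values of 2531, 3408 and 2659 FPKM, beside Cox6b2 at 9.05, 3.67 and 5.57 FPKM and at 4.83, 3.91 and 3.53 FPKM. The genotypes overlapped for both. The testis isoform Cox8c was at 3.33, 2.19 and 0 FPKM in WT ventricles and 0.322, 0.286 and 1.42 FPKM in MED13cTg ventricles. The subunits without a second isoform, Cox5a, Cox5b, Cox6c and Cox7c, had WT means of 1968 to 5860 FPKM and estimates between -0.20 and -0.02, and in each the genotypes overlapped.

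For complex V in ventricles, 13 of 15 estimates were below 0, with a median of -0.15. Without WT replicate 1, 8 of 15 were below 0 (median -0.05), without MED13cTg replicate 3 it was 9 of 15 (-0.07) and with array weights 8 of 15 (-0.03), while the median was -0.10 without MED13cTg replicate 1 and -0.24 without WT replicate 2 or without MED13cTg replicate 2. Within complex V, the 5 genes of F1, the head that makes ATP together with its central stalk, had a median of -0.23. The 4 peripheral stalk genes had -0.17, the 3 c ring genes -0.15 and the 3 other membrane genes -0.08. Atp5a1, the alpha subunit of the head, had WT values of 3029, 3082 and 3244 FPKM and MED13cTg values of 2339, 2712 and 2639 FPKM. Its groups did not overlap, with a log2 fold change of -0.28 ± 0.15 (adjusted p = 0.966). Atp5b, the catalytic beta subunit, was at 6218, 5027 and 5265 FPKM and at 3932, 5787 and 4389 FPKM, which overlap. Atp5k, the highest, had WT values of 13041, 8595 and 9265 FPKM and MED13cTg values of 9688, 11465 and 7941 FPKM, and it overlapped as well. The highest estimate of the complex was that of Atp5e, the epsilon subunit, at 0.15 ± 0.28. Uqcrc1 and Atp5a1 are the members whose MED13cTg libraries all lay below WT. Leaving out any 1 library gave log2 fold changes from -0.36 to -0.22 and from -0.33 to -0.22. Groups without overlap must keep their direction in such runs, so the sign is no separate evidence.

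The rotating c ring is built from 1 protein that 3 genes encode. In WT ventricles Atp5g3 was at 6678, 4319 and 4531 FPKM, Atp5g1 at 2837, 2176 and 2357 FPKM and Atp5g2 at 207, 200 and 229 FPKM. Atp5g3 thus gave 65.6 ± 2.7% of the ring's FPKM, Atp5g1 31.6 ± 2.1% and Atp5g2 2.78 ± 0.57% (SD, n = 3). In MED13cTg ventricles the shares were 67.2 ± 4.6%, 30.1 ± 3.9% and 2.65 ± 0.66%, which overlap with WT. In these libraries Atp5g3 was at 4492, 6647 and 3970 FPKM, Atp5g1 at 2155, 2359 and 2074 FPKM and Atp5g2 at 183, 181 and 206 FPKM.

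**Figure D4:**
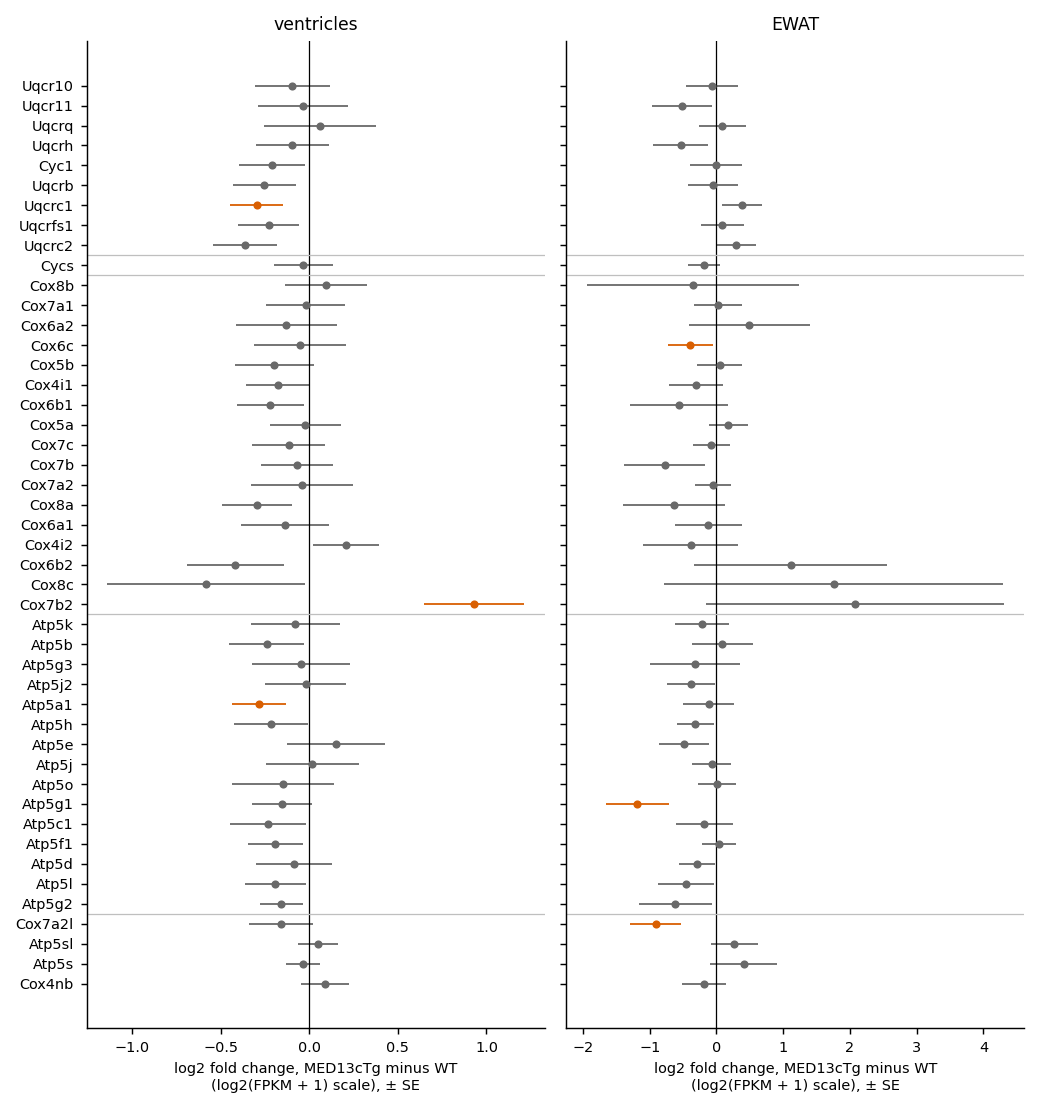
Log2 fold change, MED13cTg minus WT on the log2(FPKM + 1) scale, with its standard error for the 46 genes in ventricles (left) and EWAT (right, a wider axis), ordered as in the plot of WT levels. Orange marks genes whose genotypes do not overlap, which are Uqcrc1, Cox7b2 and Atp5a1 in ventricles and Cox6c, Atp5g1 and Cox7a2l in EWAT, and no gene passed the adjusted threshold.

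Genes that work with these complexes were compared in the same fit. Of 42 subunits of complex I, which feeds the chain from NADH, 37 had estimates below 0 in ventricles with a median of -0.11, and 1 passed the test: Ndufs1, the largest subunit, fell from 495, 516 and 561 FPKM to 198, 226 and 201 FPKM, a log2 fold change of -1.33 ± 0.13 (adjusted p = 0.0428). All 4 complex II genes had estimates below 0 with a median of -0.20, and 14 of 21 assembly factors did, with a median of -0.16, and none of them passed. Of 12 regulators of mitochondrial biogenesis, 11 had estimates below 0 and none passed. Ppargc1a, the coactivator PGC-1α, had WT values of 63.3, 55.5 and 44.6 FPKM and MED13cTg values of 33.0, 30.6 and 47.4 FPKM, with a log2 fold change of -0.56 ± 0.21 (adjusted p = 0.966), and its groups overlapped.

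In EWAT the comparison asked whether the same genes differed in fat when MED13 was raised in the heart. No member passed the test (0 of 46), with adjusted p from 0.738 to 0.996, where 2 of 14967 genes passed, or 0.0134%. At an unadjusted p under 0.05, 0 members were higher, against 0.14% of all genes, and 1 was lower, against 1.11%. The MED13cTg libraries all lay above WT in 0 members, against 4.88% of all genes, and all below in 3, against 7.8%. The estimates of 30 of 46 members were below 0, with a median log2 fold change of -0.12 beside 0.01 over all genes, but under quantile normalization 18 of 46 were below 0 and the median was 0.12, and without MED13cTg replicate 1 it was 23 of 46 with a median of 0.00. By complex the median was -0.01 for complex III, -0.07 for complex IV and -0.30 for complex V, and that of complex V was also 0.00 under quantile normalization.

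The 3 MED13cTg libraries of EWAT were spread more widely than the WT libraries. Relative to the WT means, the members had a median of -0.11, 0.10 and 0.01 in the WT libraries and of -0.64, 0.29 and -0.17 in MED13cTg replicates 1, 2 and 3. As a share of summed FPKM the members took 2.12%, 3.69% and 2.19% in MED13cTg. MED13cTg replicate 2, with the highest adipocyte sum, was the highest of the 6 libraries for 25 of 46 members, and MED13cTg replicate 1, with the lowest adipocyte sum, was the lowest for 28 of 46. With both left out, MED13cTg replicate 3 stood below the WT mean for 39 of 45 members, with a median of -0.17. Over all genes this held for 7721 of 13643, with a median of -0.03, and the values rest on 1 MED13cTg library.

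Some members followed the adipocyte genes from library to library. In Cox8b, Atp5b, Atp5g3, Uqcrb and Uqcrfs1, 5 of 46 members, the 6 libraries stood in the same order as the adipocyte sum, against 5.33% of all genes. Cox8b was at 4.86, 362 and 81.8 FPKM in MED13cTg EWAT, so that across the 6 libraries its level ran from 4.86 FPKM where the adipocyte sum was 1582 FPKM to 362 FPKM where it was 85967 FPKM. Its genotypes overlapped, with a log2 fold change of -0.35 ± 1.59. Cox8b and Cox6a2 are muscle isoforms, and 9 skeletal muscle genes summed to 21.3, 126 and 27.7 FPKM for WT EWAT beside 7.58, 84.8 and 21.4 FPKM for MED13cTg EWAT. WT replicate 2 and MED13cTg replicate 2, the highest for both isoforms, were also the highest in this sum. Their order differed, as both isoforms were higher in MED13cTg replicate 2 and the sum was higher in WT replicate 2. MED13cTg replicate 2 further held Myl2, a ventricular myosin light chain, at 11.2 FPKM against 0 to 0.527 FPKM in the other 5. Atp5b had WT values of 556, 858 and 691 FPKM and MED13cTg values of 496, 1259 and 630 FPKM. Uqcrfs1 spanned less, at 119, 157 and 138 FPKM (WT) and 117, 217 and 123 FPKM (MED13cTg). Ucp1 and other genes of brown adipocytes summed to 4.18 to 7.94 FPKM in WT and 4.53 to 15.8 FPKM in MED13cTg. The part of adipocyte, muscle or heart content in these levels was not tested.

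The testis isoforms stood out in 1 library. Cox6b2 had EWAT values of 26.8, 21.4 and 20.5 FPKM for WT and 531, 9.86 and 22.2 FPKM for MED13cTg. Cox8c had WT values of 15.3, 4.32 and 2.48 FPKM and MED13cTg values of 1094, 0 and 9.69 FPKM, and Cox7b2 at 3.57, 2.27 and 0.747 FPKM and at 431, 0 and 3.49 FPKM. Cyct, the testis form of cytochrome c and no member by its symbol, was at 1.86, 1.37 and 1.02 FPKM and at 197, 0.498 and 1.88 FPKM. The high value was in each case MED13cTg replicate 1, the library with a germ cell sum of 16636 FPKM, and the genotypes overlapped. Cox6b2 took 74.7% of the pair with Cox6b1 there and Cox7b2 took 91.5% of the pair with Cox7b, against 2.32 to 3.72% and 0.408 to 2.23% in WT. The widely used partners were at their lowest in the same library, with Cox6b1 at 180 FPKM against 693 to 862 FPKM in WT, Cox7b at 39.9 against 156 to 203 FPKM and Cox8a at 417 against 1920 to 2041 FPKM. Without MED13cTg replicate 1 the log2 fold changes of Cox6b2, Cox7b2 and Cox8c went from 1.11, 2.07 and 1.76 to -0.58, -0.49 and -1.04.

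**Figure D5:**
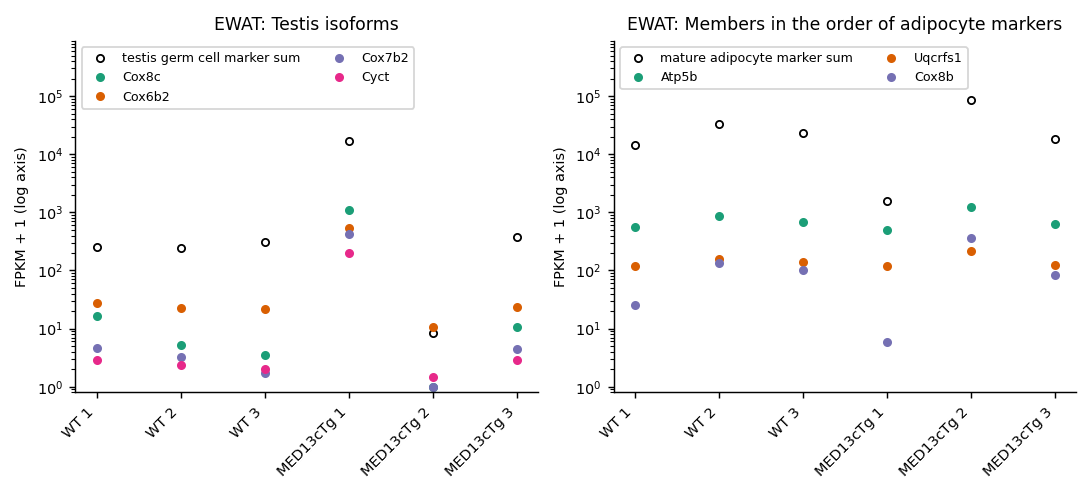
FPKM + 1 on a log axis in each EWAT library for the testis isoforms Cox8c, Cox6b2, Cox7b2 and Cyct beside the sum of 7 testis germ cell genes (left), and for Atp5b, Uqcrfs1 and Cox8b beside the sum of 13 mature adipocyte genes (right). The testis isoforms are high in MED13cTg replicate 1 only, at 197 to 1094 FPKM, and the genes on the right stand in the same order of libraries as the adipocyte sum.

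In complex V of EWAT, 12 of 15 estimates were below 0, but 8 of 15 without MED13cTg replicate 1 (median -0.01), 7 of 15 under quantile normalization and 11 of 15 with array weights (-0.09). Without MED13cTg replicate 2 all 15 were below 0, with a median of -0.49. The lowest was Atp5g1, the only member with an unadjusted p under 0.05 there, at 304, 255 and 308 FPKM (WT) and 90.0, 87.5 and 255 FPKM (MED13cTg). Its log2 fold change was -1.19 ± 0.47 (adjusted p = 0.738). MED13cTg replicates 1 and 2 were low and replicate 3 lay just under the lowest WT library, so the groups did not overlap by a narrow margin. Without both low libraries the log2 fold change was -0.18. The other c ring genes did not share this pattern: Atp5g2 had WT values of 117, 96.8 and 113 FPKM and MED13cTg values of 30.0, 113 and 103 FPKM, and Atp5g3 at 716, 962 and 850 FPKM and at 263, 1495 and 768 FPKM. Atp5g1 thus took 5.16% of the ring's FPKM in MED13cTg replicate 2 against 19.4 to 26.7% in WT, and 23.5% and 22.6% in the other MED13cTg libraries.

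Cox7a2l, which helps join complexes III and IV into supercomplexes, showed the same 2 low libraries. It had EWAT values of 432, 389 and 463 FPKM for WT and 175, 175 and 379 FPKM for MED13cTg, a log2 fold change of -0.91 ± 0.39 (adjusted p = 0.738), and -0.17 without both low libraries. Atp5g1 and Cox7a2l were the 2 of 46 members whose libraries stood in the order of the epididymis sum, against 0.716% of all genes (107 genes). This order places every MED13cTg library below every WT library. Only genes without overlap in that direction could match it, which were 3 members and 1168 of 14967 genes. Both members had been singled out for that lack of overlap, so the share over all genes is too low a base for them. That sum was 291 FPKM in MED13cTg replicate 2 and 14065 FPKM in MED13cTg replicate 1, the same libraries. Atp5s, which takes part in ATP synthase coupling, was the 1 member in the order of the germ cell sum, against 0.715% of all genes, with 25.6 FPKM in MED13cTg replicate 1 and 6.50 to 9.16 FPKM in the other 5. The part of epididymis or testis content in these levels was not tested.

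In complex IV of EWAT, 10 of 17 estimates were below 0, but 6 of 17 under quantile normalization (median 0.21) and 8 of 17 without MED13cTg replicate 1 (0.05), without WT replicate 2 (0.01) and with array weights (0.02). Without MED13cTg replicate 2 the median was -0.29. Cox6c had WT values of 1661, 1712 and 1641 FPKM and MED13cTg values of 1269, 1193 and 1367 FPKM, with a log2 fold change of -0.39 ± 0.33 (adjusted p = 0.738), or 0.27 under quantile normalization. Its 3 MED13cTg libraries were all below WT and close to each other, unlike most members. The main isoform Cox4i1 had WT values of 1359, 1319 and 1297 FPKM and MED13cTg values of 753, 1538 and 1061 FPKM, and Cox4i2 at 5.46, 7.69 and 5.01 FPKM and at 1.04, 13.0 and 4.35 FPKM. Cox6a1 was at 452, 1494 and 742 FPKM in MED13cTg and Cox6a2 at 0, 5.58 and 0.710 FPKM. Cox7a1 was at 31.2, 37.8 and 22.4 FPKM and Cox7a2 at 407, 315 and 278 FPKM, so that Cox7a1 took 7.11 to 10.7% of the pair. Cox8a was at 417, 2668 and 1828 FPKM, and Cox8b took 1.15 to 11.9% of that pair. Each of these genes overlapped between genotypes, and for the 8 isoform ratios in EWAT the exact permutation p was 0.40 to 1.

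In complex III of EWAT, 5 of 9 estimates were below 0, and no gene stood apart between genotypes. The median ran from -0.30 without MED13cTg replicate 2 to 0.23 without MED13cTg replicate 1. The highest, Uqcr10, had WT values of 1269, 1628 and 1380 FPKM and MED13cTg values of 1103, 1865 and 1202 FPKM. Cyc1 had WT values of 153, 172 and 140 FPKM and MED13cTg values of 98.6, 257 and 143 FPKM. For both, MED13cTg replicate 1 was below and MED13cTg replicate 2 above all WT libraries. The core proteins Uqcrc1 and Uqcrc2, with the lowest estimates of the complex in ventricles, had the highest here, at 0.38 ± 0.30 and 0.30 ± 0.30, and the difference between the tissues was not tested. The lowest estimates of complex III were those of the small subunits Uqcrh and Uqcr11, at -0.54 ± 0.41 and -0.52 ± 0.45, in both cases with MED13cTg replicate 1 as the lowest library (350 and 276 FPKM). Of the genes that work with the complexes, 0 of 42 complex I subunits, 0 of 4 complex II genes, 0 of 21 assembly factors and 0 of 10 tested biogenesis regulators passed the test in EWAT, with median log2 fold changes of -0.18, -0.01, 0.05 and 0.19.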

How the data were processed

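The authors isolated RNA from frozen tissue, made TruSeq libraries, aligned reads with TopHat to mm9 and estimated FPKM with Cufflinks at default settings. Versions and strand handling are not given in the sources used here. FPKM was deposited as 1 table per tissue; the authors' mean and fold columns, which hold their own comparisons, and 1 unnamed column were not used. Genes whose 6 libraries averaged 1 FPKM or more in a tissue were fitted as log2(FPKM + 1) with limma 3.58.1 (R 4.3.3; mean-variance trend, no covariate) and adjusted by Benjamini-Hochberg over all genes. Isoform ratios, log2 with 1 FPKM added to each gene, had exact permutation tests. P-values measure the spread between 3 libraries. The members and lists were chosen with earlier results of these data known. The gene naming rule took the isoform pairs, the c ring, Cycs, Cyc1, the highest member of each complex and tissue, members with an unadjusted p under 0.05 and, per complex, the largest difference without overlap; other members named were chosen after their values were seen. The order of libraries by marker sums was compared after seeing the data. Same-numbered libraries are not stated to share a mouse, litter or day. Their deviations from the group means correlated at 0.085, -0.19 and 0.14 in ventricles. These values give no sign of pairing by number but cannot exclude a shared litter or day. In EWAT they correlated at 0.35, 0.30 and 0.14, but WT replicate 3 correlated more with MED13cTg replicate 2, at 0.17. Pairing is thus not established in either tissue, and the main fit does not use it. The part of tissue content in these correlations was not tested. Transcript lengths came from GENCODE vM21. Reads may be shared with another entry for 6 members (Atp5b, Atp5f1, Atp5j, Cox6a2, Cox8b, Uqcrc2) and with a pseudogene named in RefSeq for 7 (Atp5c1, Atp5k, Atp5l, Cox5b, Cox7c, Cycs, Uqcrh). Python 3.11.15, numpy 2.4.6, pandas 2.3.3, scipy 1.17.1 and matplotlib 3.10.9 gave the other values and plots. The fit was tested on simulated data drawn from the means and spread of the WT libraries. That test does not cover the wider spread of the EWAT MED13cTg libraries.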

Additional observations from a re-analysis of the deposited data

How the results depend on the processing

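The count of members past the threshold was 0 in both tissues under every alternative run, which says little about stability, since 7 and 2 genes passed in all and the adjusted p of the members was 0.738 or more. The alternatives were a pseudocount of 0.1, quantile normalization, median-of-ratios scaling, no filter or one at 5 FPKM, no trend, array weights, the replicate block, each library left out, summed rows, the library cluster in ventricles, and EWAT without MED13cTg replicates 1 and 2, where 1 MED13cTg library is left, the WT libraries alone give the spread and that library is assumed to vary like them. The replicate block changed no call, with log2 fold changes of -1.19 for Atp5g1 in EWAT (adjusted p = 0.751) and 0.93 for Cox7b2 in ventricles. Leaving out 1 library moved the members' median log2 fold change from -0.24 (without MED13cTg replicate 2) to 0.01 (without WT replicate 1) in ventricles and from -0.38 (without MED13cTg replicate 2) to -0.00182 (without MED13cTg replicate 1) in EWAT, and quantile normalization gave 0.12 in EWAT. Quantile normalization also gave 0.27 for Cox6c in EWAT. Leaving out 1 EWAT library gave log2 fold changes of -0.58 to 2.23 for Cox6b2, -0.49 to 3.89 for Cox7b2 and -1.04 to 4.01 for Cox8c, and Cox6b2 was at -0.029 without MED13cTg replicates 1 and 2. The causes were not tested beyond the values given. In ventricles the differences in log2 ratio ran with 1 library left out from -0.15 to 0.29 for Cox6a2/Cox6a1, -0.15 to 0.12 for Cox7a1/Cox7a2, -0.41 to 0.0083 for Cox6b2/Cox6b1, -0.082 to 0.13 for Atp5g1/Atp5g2 and -0.14 to 0.32 for Atp5g3/Atp5g2. In EWAT they ran from -0.20 to 0.23 for Cox7a1/Cox7a2, -0.52 to 1.11 for Cox8b/Cox8a, -0.51 to 0.37 for Cox4i2/Cox4i1, -0.81 to 3.36 for Cox6b2/Cox6b1, -0.39 to 5.07 for Cox7b2/Cox7b and -0.93 to 0.028 for Atp5g1/Atp5g2. Those of Cox8b/Cox8a (0.33 to 0.48), Cox4i2/Cox4i1 and Cox7b2/Cox7b in ventricles stayed above 0. For ratios whose genotypes do not overlap this outcome was fixed in advance, so it says nothing of their stability. With 2 libraries in a group no exact p under 0.20 is possible. Depth is unknown from FPKM, which limits what can be said of Cox7b2 and Cox8c in ventricles.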
